A study of Mus musculus with 8 samples.

Results

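Genes of the machinery that drives cells into and through mitosis were followed in plasmacytoid dendritic cells (pDC) of the mouse. They encode the kinases Plk1, Plk4, Aurka, Nek2, Melk, Pbk and Wee1 and the phosphatases Cdc25a, Cdc25b and Cdc25c. These 10 genes are 10 of 36095 named features on the arrays, and 10 of the 19818 that were bright enough to test. They were chosen by name, and each was read by exactly 1 probe, spotted once. The list of names was drawn up with results of this same comparison known, so counts over the 10 genes describe them and support nothing further. The pDC had been grown from bone marrow precursors of female BALB/c mice with the cytokine Flt3 ligand and then sorted, by magnet and flow cytometry, into Sca-1+ and Sca-1- cells. Each group has 4 replicates, no drug or stimulus is given for either, and the age of the mice is not stated. Sca-1 is the surface protein encoded by Ly6a, found on many early blood-forming cells, and the study uses it to separate stages of pDC development. Cells from a culture stand in here for pDC of the animal, and the labels do not say whether replicates came from separate cultures or mice, so the p-values speak only of sample-to-sample spread, which may be technical.

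Entry into mitosis is set by the cyclin-dependent kinase Cdk1. Wee1 holds Cdk1 inactive by phosphorylating it, and the Cdc25 phosphatases remove that phosphate. Plk1 and Aurka push the balance toward activation and then build the spindle, Plk4 starts the copying of centrioles, Nek2 loosens the link between centrosomes, and Melk and Pbk are kinases made mainly in dividing cells. Transcription of many of these genes peaks in the G2 and M phases of the cycle, through promoter elements known as the CHR (cell cycle genes homology region) and the CCAAT box, whereas E2F elements are typical of genes that peak earlier, at entry into S phase.

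The promoter sequences of 7 of the 10 genes were at hand (Plk1, Plk4, Aurka, Nek2, Melk, Cdc25a and Cdc25b), taken from RefSeq on build GRCm38.p6 as 250 bases before and 50 bases after the annotated start. Windows of 30 bases are shown for matches in genes called lower and in Cdc25a, which did not pass the test below. A further CCAAT box of Nek2 (at +8) and of Cdc25a (on the other strand at -131) is not shown as a window. Whether these letters bear on the levels was not tested. They read 5′ to 3′ on the strand of the gene, with the element in capitals, and positions are counted from the first transcribed base as +1.
Plk1, CHR at +31, chr7:122159453-122159482, plus strand: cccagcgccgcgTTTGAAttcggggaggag
Aurka, CHR at +33, chr2:172370521-172370550, minus strand: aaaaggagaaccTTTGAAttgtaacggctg
Cdc25b, CHR at +8, chr2:131186943-131186972, plus strand: ccgctgttatttTTCGAAtatataaggagg
Plk1, CCAAT box at -14, chr7:122159409-122159438, plus strand: aaatccccgcggCCAATcagcaacgcgcag
Aurka, CCAAT box at -51, chr2:172370604-172370633, minus strand: gtttacggtgagCCAATcacagaacggcat
Aurka, CCAAT box at -19, chr2:172370572-172370601, minus strand: ctccggctctagCCAATcagctcttggagt
Nek2, CCAAT box at -26, chr1:191821435-191821464, plus strand: gtgttttctcagCCAATcagagttgagatg
Cdc25b, CCAAT box on the other strand at -28, chr2:131186908-131186937, plus strand: accggcgcccccATTGGtggcgtctggcgg
Cdc25a, CCAAT box on the other strand at -81, chr9:109875486-109875515, plus strand: gtttgcttcctgATTGGtgaattccgtttg
Cdc25a, E2F element at -67, chr9:109875501-109875530, plus strand: ggtgaattccgTTTGGCGCcaactaggaaa
The letters searched were TTTGAA or TTCGAA for the CHR, CCAAT for the CCAAT box and TTTGGCGC or TTTCGCGC for the E2F element, on both strands, and none of these motifs contains another. A CHR stood in 3 of the 7 promoters (Plk1, Aurka and Cdc25b), against 19.2% of 32851 RefSeq promoters of the same length. A CCAAT box stood in 5 of the 7 (Plk1, Aurka, Nek2, Cdc25a and Cdc25b), against 37.4% of all promoters, and 3 of the 7 held at least 2 of them (Aurka, Nek2 and Cdc25a), against 11.7%. The E2F letters stood in 1 of the 7, that of Cdc25a, against 0.813% of all promoters. Plk4 and Melk held none of these letters in the window. A match describes the letters and does not show that a factor binds there.

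For a longer view, 150 bases upstream of the start are shown for Plk1, whose level differed, and for Cdc25a, whose level did not pass the test, with CCAAT boxes on either strand in capitals. The Cdc25a stretch ends 61 bases farther upstream than the start used above, so as to hold no transcribed base of any annotated transcript.
Plk1, chr7:122159285-122159434, plus strand: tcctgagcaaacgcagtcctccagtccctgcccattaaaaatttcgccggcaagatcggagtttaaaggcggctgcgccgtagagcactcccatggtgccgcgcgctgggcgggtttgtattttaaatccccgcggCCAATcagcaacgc
Cdc25a, chr9:109875368-109875517, plus strand: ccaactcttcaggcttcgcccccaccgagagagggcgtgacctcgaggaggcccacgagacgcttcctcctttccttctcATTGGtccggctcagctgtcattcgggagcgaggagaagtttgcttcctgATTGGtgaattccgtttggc

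Between 45.9% and 54.9% of the non-control spots of an array were well above background, and Ly6a itself, at 7.43 ± 0.28 in Sca-1+ and 2.78 ± 0.44 in Sca-1- samples (log2, SD, n = 4 each), differed by 25.1-fold, which checks the labels only. All 13 pDC markers were measured and 0 of them passed the test (1 had an unadjusted p under 0.05), with a median difference of 0.20. When the slide entered the fit as a block, Tlr7 and Ccr9 were higher. The B cell genes Ms4a1 and Pax5, the T and NK cell genes Cd3d, Cd3g, Ncr1 and Klrb1c, and the erythroid gene Klf1 stayed below the well-above-background mark on all 8 arrays. Other markers of these 3 kinds did give signal, Cd3e, Cd79a, Cd79b and Epor well above background on all 8 arrays and Cd8b1 on 7, and of these 5 tested genes 0 passed (0 at an unadjusted p under 0.05). Hba-a1 was well above background on 1 array of each group and Ebf1 on 1 Sca-1- array, and neither was tested. Cd3e lay at 1.09 to 2.88 in Sca-1+ and 1.11 to 2.76 in Sca-1- samples, and Cd79b at 2.36 to 2.70 in Sca-1+ and 2.05 to 2.61 in Sca-1- samples. Of 5 tested conventional dendritic cell markers 0 passed (2 at an unadjusted p under 0.05), while the blocked fit called Zbtb46 lower (-1.20, adjusted p = 0.0131) and Sirpa higher (0.54, adjusted p = 0.0420). The 7 listed markers of this kind were also summed on the linear scale relative to the 75th percentile of the array. Their sum was 46.8 to 85.2 in Sca-1+ and 37.2 to 62.4 in Sca-1- samples. Of 6 progenitor markers 2 were lower in Sca-1+ pDC, Cd93 by 1.98 and Sox4 by 1.19 on the log2 scale, while Cd34 and Kit differed by -0.91 and -0.48 with adjusted p = 0.907 and 0.954. The summed level of the progenitor markers, on the linear scale relative to the 75th percentile of the array, was 12.0 to 17.7 in Sca-1+ samples and 21.3 to 34.0 in Sca-1- samples. That of 7 monocyte and granulocyte markers, of which 0 passed (1 at an unadjusted p under 0.05) while the blocked fit called Csf1r and Prtn3 lower, was 8.39 to 23.2 in Sca-1+ samples and 21.1 to 41.0 in Sca-1- samples. Csf1r (-1.19) had the highest level of these 7 genes on every array, so it weighs most in that sum. Prtn3 differed by -0.74. Elane, Mpo, S100a8, S100a9 and Lyz2 differed by 0.21, -0.10, -0.20, -0.19 and -0.08. The part of any of these lists in the results below was not tested. In bulk samples a smaller share of dividing cells and less of the transcript in each cell cannot be told apart.

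Of the 10 genes, 8 were lower in Sca-1+ pDC and 0 were higher, while Plk4 and Cdc25a did not pass. Over all tested genes 1.58% were called lower and 0.126% higher. A fit with the slide as a block put 9 of the 10 below the threshold, Plk4 being added, where 4.12% of all genes were called lower and 2.1% higher. Levels are log2 signals relative to the 75th percentile of the array, and a difference is Sca-1+ minus Sca-1- on that scale, called where the adjusted p of limma's unpaired test over all 19818 genes was under 0.05. The median difference of the 10 genes was -2.07 (-2.05 with Plk4 at its bound, given below), against 0.03 over all tested genes. Plk4 aside, 6 differences lay beyond -2, as did 0.606% of all genes. The groups did not overlap for any of the 10 genes, a state that 5.04% of all tested genes showed in the direction of lower Sca-1+ values. Each array with a given replicate number shared a slide with its partner, and all 10 genes were lower in the Sca-1+ sample on all 4 slides. The median over the genes was -2.30, -1.97, -2.09 and -1.81 on slides 1 to 4. Every slide carried its Sca-1+ sample at array position 2 and its Sca-1- partner at position 1, so position and group cannot be told apart.

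**Figure D1:**
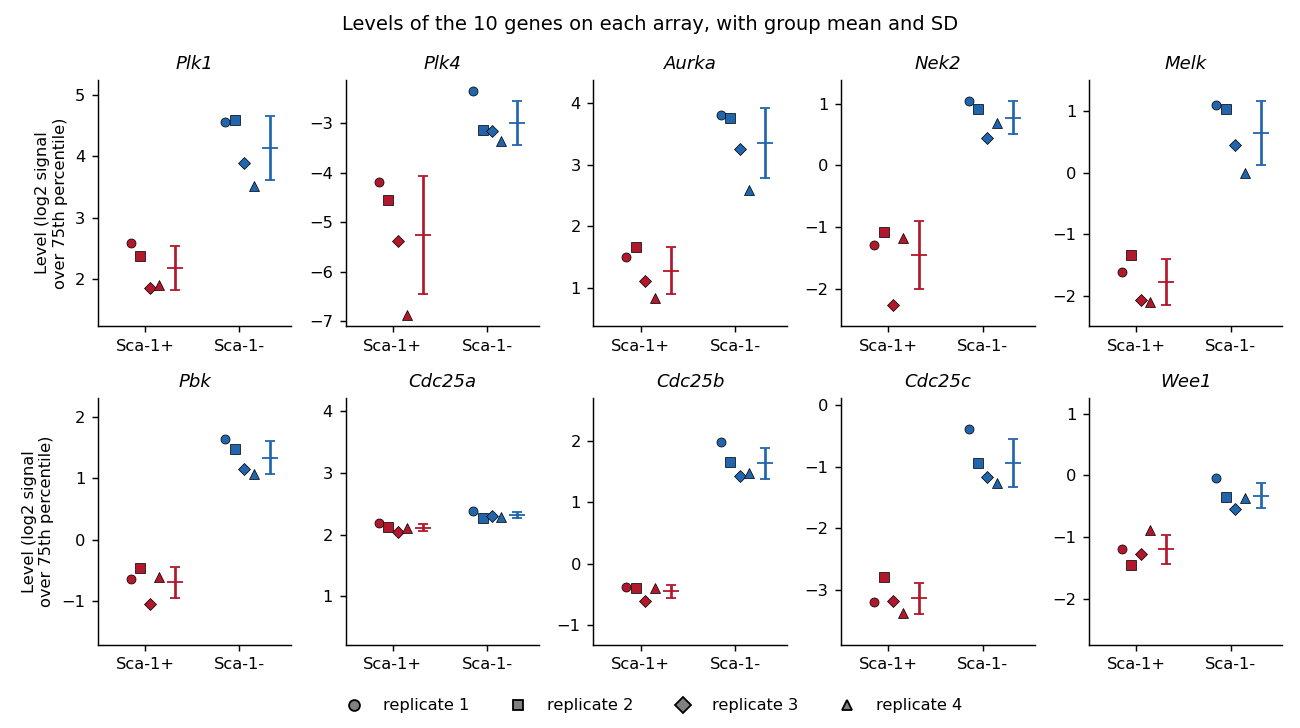
Level of each of the 10 genes (log2 signal relative to the 75th percentile of the array) on the 4 Sca-1+ arrays (red, left) and the 4 Sca-1- arrays (blue, right), with the group mean and SD as bars. In each panel every Sca-1+ point lies below every Sca-1- point, by 0.09 at the closest in Cdc25a.

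Plk1 is the polo-like kinase that activates Cdc25 and marks Wee1 for destruction. Its level was 2.59, 2.38, 1.86 and 1.91 in Sca-1+ replicates 1 to 4, against 4.55, 4.58, 3.89 and 3.51 in Sca-1- replicates 1 to 4. The Sca-1- values were all above the Sca-1+ ones, and replicates 3 and 4 were the lower ones of either group. The mean was 2.18 ± 0.36 in Sca-1+ and 4.13 ± 0.53 in Sca-1- samples (SD, n = 4 each), a difference of -1.95 ± 0.29 SE or 3.86-fold lower (adjusted p = 0.0128). On slides 1 to 4 the difference was -1.96, -2.21, -2.03 and -1.60. Its probe lies on chromosome 7, 129313220 to 129313279 (build mm9). The call was lost without Sca-1+ replicate 3 (adjusted p = 0.0562) and without Sca-1- replicate 1 (0.0533) or 2 (0.0527).

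Plk4, the kinase that licenses centriole duplication, gave the dimmest signal of the 10. In signal units it read 9.08, 8.24, 4.79 and 3.39 on the Sca-1+ arrays of replicates 1 to 4, below the well-above-background mark on each of these arrays, and 45.7, 17.3, 23.4 and 42.6 in Sca-1- replicates 1 to 4, well above background on all of them. The levels were -4.19, -4.54, -5.39 and -6.87 in Sca-1+ and -2.34, -3.14, -3.15 and -3.35 in Sca-1- samples. The groups stood apart, and Sca-1+ replicate 4 was the lowest of the 8. Plk4 was tested only because its Sca-1- arrays were bright. Its Sca-1+ level has only a nominal bound, by which it was at least 1.99-fold lower in Sca-1+ pDC. The mean of the Sca-1- samples was set against a level for each Sca-1+ array. That level was the higher of the lowest signal well above background and the signal of the probe. The lowest such signal is no strict ceiling, since a probe below the mark can read above it. Aurkb did so in Sca-1+ replicate 2 (-3.54 against -3.93). The fitted difference of -2.25 ± 0.55 SE did not pass (adjusted p = 0.119), and it passed with the slide as a block (adjusted p = 0.0239), where slides 1 to 4 gave -1.85, -1.40, -2.23 and -3.52. Normexp background correction shrank the difference to -0.40. The probe spans chromosome 3, 40615898 to 40616037 (mm9).

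Aurka encodes Aurora A, the spindle-pole kinase that also activates Plk1. It reached 1.51, 1.67, 1.12 and 0.84 in Sca-1+ replicates 1 to 4, against 3.81, 3.76, 3.26 and 2.59 in Sca-1- replicates 1 to 4. As for Plk1, replicates 3 and 4 were the lower ones in either group, and the groups did not overlap. The mean was 1.28 ± 0.38 in Sca-1+ and 3.36 ± 0.57 in Sca-1- samples (SD, n = 4 each), so that Aurka was 4.21-fold lower (difference -2.07 ± 0.31 SE, adjusted p = 0.0127). The slides gave -2.31, -2.09, -2.15 and -1.75. Without Sca-1+ replicate 3, Sca-1- replicate 1 or Sca-1- replicate 2 the adjusted p was 0.0580, 0.0523 or 0.0549. The probe lies on chromosome 2, 172181726 to 172181785 (mm9).

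The centrosome kinase gene Nek2 had levels of -1.29, -1.08, -2.27 and -1.18 in Sca-1+ replicates 1 to 4, against 1.05, 0.92, 0.44 and 0.69 in Sca-1- replicates 1 to 4. Sca-1+ replicate 3 stood about 1 unit below the other Sca-1+ samples, and no sample reached the range of the other group. Nek2 averaged -1.46 ± 0.55 in Sca-1+ and 0.78 ± 0.27 in Sca-1- samples (SD, n = 4 each) and was 4.70-fold lower (difference -2.23 ± 0.28 SE, adjusted p = 0.00676). Slide by slide the difference was -2.34, -2.00, -2.71 and -1.87. Its probe maps to chromosome 1, 193656343 to 193656402 (mm9).

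Melk, a kinase of the AMPK-related family, had a larger difference than the other called genes here, but with normexp background correction it differed by -1.67, less than Aurka, Plk1 and Cdc25b. Its levels were -1.62, -1.33, -2.06 and -2.09 in Sca-1+ replicates 1 to 4, against 1.10, 1.03, 0.46 and 0.00 in Sca-1- replicates 1 to 4. Every Sca-1+ sample lay more than 1 unit below every Sca-1- sample. Melk averaged -1.77 ± 0.37 in Sca-1+ and 0.65 ± 0.52 in Sca-1- samples (SD, n = 4 each), 5.36-fold lower (difference -2.42 ± 0.29 SE, adjusted p = 0.00577). The slides gave -2.72, -2.36, -2.52 and -2.09, and the probe lies on chromosome 4, 44377041 to 44377100 (mm9).

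Pbk encodes a kinase of the MAPKK family that is phosphorylated in mitosis. Sca-1+ replicates 1 to 4 had -0.64, -0.45, -1.04 and -0.61, against 1.64, 1.48, 1.14 and 1.07 in Sca-1- replicates 1 to 4. Both groups were tight, with a gap of more than 1 unit between them. The mean was -0.69 ± 0.25 in Sca-1+ and 1.33 ± 0.27 in Sca-1- samples (SD, n = 4 each), which is 4.06-fold lower (difference -2.02 ± 0.19 SE, adjusted p = 0.00503). By slide it was -2.28, -1.93, -2.19 and -1.69. The probe is on chromosome 14, 66436224 to 66436283 (mm9).

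**Figure D2:**
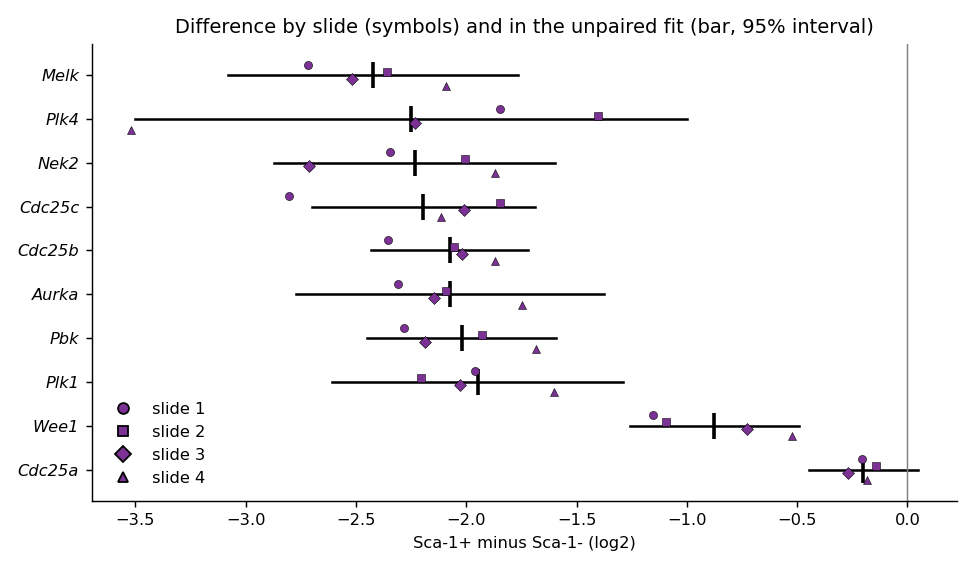
Sca-1+ minus Sca-1- difference (log2) of each gene within slides 1 to 4 (symbols), with the fitted difference and its 95% interval (bar and line). The values of Plk4 are set against Sca-1+ signals that were not well above background, and Cdc25a is the gene nearest to 0, at -0.20.

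The Cdc25 phosphatases did not move alike. Cdc25a, which acts on Cdk2 at the start of S phase as well as on Cdk1, had levels of 2.18, 2.13, 2.04 and 2.10 in Sca-1+ replicates 1 to 4, against 2.39, 2.27, 2.31 and 2.29 in Sca-1- replicates 1 to 4. The groups did not overlap, yet only 0.09 separated the highest Sca-1+ from the lowest Sca-1- sample. The mean was 2.11 ± 0.06 in Sca-1+ and 2.31 ± 0.05 in Sca-1- samples (SD, n = 4 each). The difference of -0.20 ± 0.11 SE had a 95% interval of -0.45 to 0.05 and did not pass (adjusted p = 0.739). The slides gave -0.21, -0.14, -0.27 and -0.18, and its probe lies on chromosome 9, 109796331 to 109796390 (mm9).

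Cdc25b, the phosphatase that starts Cdk1 activation at the centrosome, had the smallest p of the 10 genes. It stood at -0.38, -0.40, -0.60 and -0.40 in Sca-1+ replicates 1 to 4, against 1.98, 1.66, 1.42 and 1.47 in Sca-1- replicates 1 to 4. Sca-1+ replicate 3 was the lowest, the other Sca-1+ samples were close to each other, and all lay far below the Sca-1- range. The mean was -0.45 ± 0.11 in Sca-1+ and 1.63 ± 0.25 in Sca-1- samples (SD, n = 4 each), 4.21-fold lower (difference -2.07 ± 0.16 SE, adjusted p = 0.00236). On the slides it was -2.35, -2.05, -2.02 and -1.87. The probe lies on chromosome 2, 131023911 to 131023970 (mm9).

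Cdc25c, the phosphatase that Plk1 and Cdk1 switch on in a feedback loop at mitotic entry, was dim but well above background on all 8 arrays. Sca-1+ replicates 1 to 4 had -3.19, -2.79, -3.18 and -3.38, and Sca-1- replicates 1 to 4 had -0.39, -0.94, -1.17 and -1.26. Sca-1- replicate 1 was the highest, and the groups were more than 1 unit apart. The mean was -3.14 ± 0.25 in Sca-1+ and -0.94 ± 0.39 in Sca-1- samples (SD, n = 4 each), a 4.58-fold lower level (difference -2.19 ± 0.22 SE, adjusted p = 0.00503). The slides gave -2.80, -1.85, -2.01 and -2.12. With normexp background correction the difference was -1.03 and still passed (adjusted p = 0.0405). The probe lies on chromosome 18, 34903648 to 34903707 (mm9).

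Wee1, the kinase that opposes the Cdc25 phosphatases, also had lower levels in Sca-1+ pDC, by less than most of the others. They were -1.20, -1.45, -1.27 and -0.89 in Sca-1+ replicates 1 to 4, against -0.04, -0.35, -0.54 and -0.37 in Sca-1- replicates 1 to 4. The groups did not overlap, and Sca-1+ replicate 4 was the closest to the Sca-1- range. The mean was -1.20 ± 0.23 in Sca-1+ and -0.33 ± 0.21 in Sca-1- samples (SD, n = 4 each), 1.83-fold lower (difference -0.87 ± 0.17 SE, adjusted p = 0.0443). The slides gave -1.15, -1.10, -0.73 and -0.52. This call was lost when any array other than Sca-1+ replicate 4 was left out, with adjusted p between 0.0594 and 0.172, under quantile normalization (0.0539), in the authors' deposited values (0.0538), without the filter on dim probes (0.184) and with normexp correction (-0.60, adjusted p = 0.109). The probe lies on chromosome 7, 117286573 to 117286632 (mm9).

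Ratios of the phosphatases to each other and to Wee1 were taken within each array, where the scaling cancels. A ratio between probes has no absolute meaning, so only its difference between the groups is read. The 6 pairs were compared by exact two-sided permutation over the 70 arrangements of 8 arrays, with a smallest possible p of 0.0286, and adjusted over the 6. Cdc25b relative to Cdc25a was 3.67-fold lower in Sca-1+ pDC (log2 difference -1.87 ± 0.11 SE, exact permutation p = 0.0286, adjusted 0.0343). The slides gave -2.15, -1.91, -1.75 and -1.69 for that pair. Cdc25c relative to Cdc25a was 3.98-fold lower (-1.99 ± 0.21 SE), and relative to Wee1 both Cdc25b (-1.20 ± 0.13 SE, 2.30-fold) and Cdc25c (-1.32 ± 0.26 SE, 2.50-fold) were lower. Cdc25a relative to Wee1 was 1.60-fold higher in Sca-1+ pDC (0.67 ± 0.15 SE). Each of these 5 pairs had groups that did not overlap, an exact permutation p of 0.0286 and an adjusted p of 0.0343. The pair Cdc25c over Cdc25b overlapped between the groups and did not pass (-0.12 ± 0.15 SE, exact permutation p = 0.400), with slide values from -0.45 to 0.21. These arrangements ignore the slides. When only the arrays of a slide were swapped, an analysis chosen after seeing the data, the 16 arrangements allowed no p below 0.125. Each of the 5 pairs then had an exact permutation p of 0.125 and did not pass. All single differences behind these ratios come from the same 8 arrays and were known when the genes were listed. Scaling cancels in a ratio, but background correction does not. With normexp correction Cdc25a, Cdc25b, Cdc25c and Wee1 differed by -0.22, -1.76, -1.03 and -0.60. Cdc25c then fell by less than Cdc25b, so the size of the ratios with the dim Cdc25c depends on that step. The ratios were not tested under that setting.

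**Figure D3:**
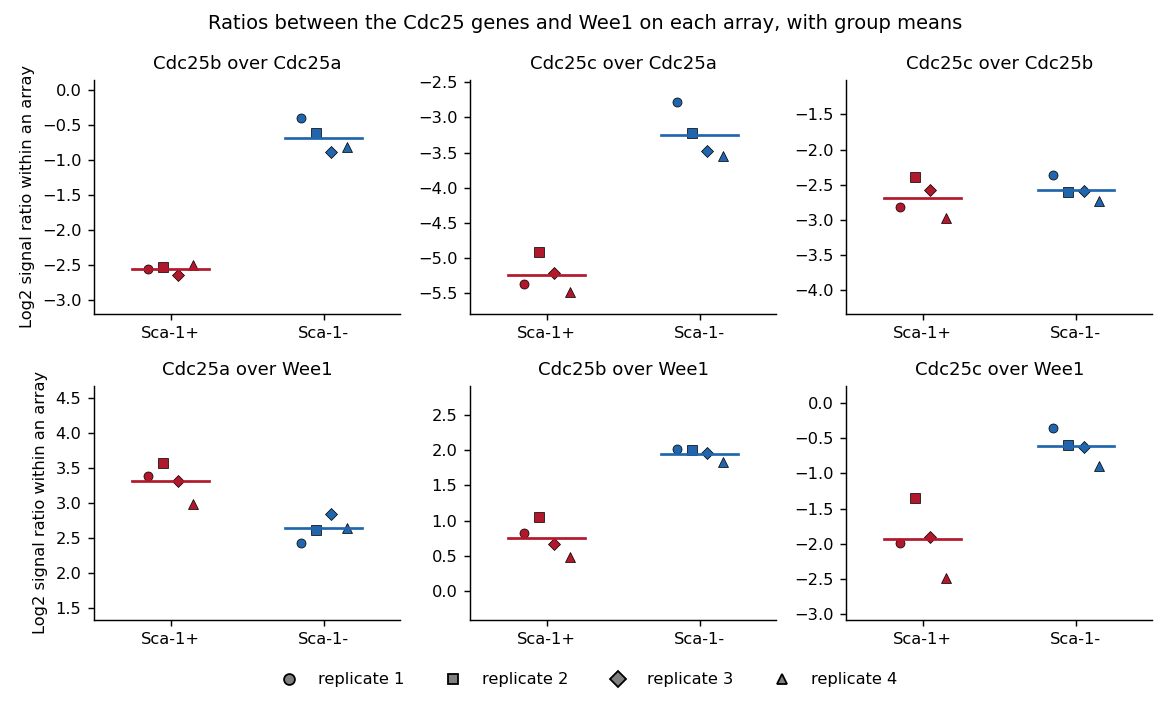
Log2 ratio of signals within each array for the 6 pairs of Cdc25a, Cdc25b, Cdc25c and Wee1, in Sca-1+ (red, left) and Sca-1- (blue, right) samples, with group means as lines. The groups are separate in 5 panels and overlap for Cdc25c over Cdc25b, whose means are -2.69 in Sca-1+ and -2.57 in Sca-1- samples.

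Beyond the group difference, the genes also varied together from array to array, where Plk4 in Sca-1+ samples enters with signals below the background mark. Deviations from the group mean were correlated over the 8 arrays for 45 pairs of genes, as a description, since pairs share arrays, labelling and slides. Pearson's r lay between -0.36 and 0.98 with a median of 0.63, and 42 of the 45 were positive. For the 8 genes other than Cdc25a and Wee1 all 28 values were positive (0.15 to 0.98, median 0.71), and the highest joined Aurka and Melk. Every negative value belonged to a pair with Wee1, so leaving Wee1 out was enough to make the rest positive. Cdc25a, which did not pass between the groups, had 9 positive values over its 9 pairs (0.32 to 0.73, median 0.58). The share of positive pairs among other genes was not computed. Wee1 was the gene least like the others, with a median r of 0.14 over its 9 pairs. The mean deviation of the 10 genes was 0.21, 0.25, -0.24 and -0.22 in Sca-1+ replicates 1 to 4, against 0.38, 0.13, -0.19 and -0.33 in Sca-1- replicates 1 to 4. Averaged over the 10 genes, replicates 1 and 2 were thus above, and replicates 3 and 4 below, the mean in either group. The value of Sca-1+ replicate 4 leans on Plk4, at -6.87 against a group mean of -5.25, under the background mark. Nek2, Pbk, Cdc25b and Wee1 lay above their group means on that array.

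**Figure D4:**
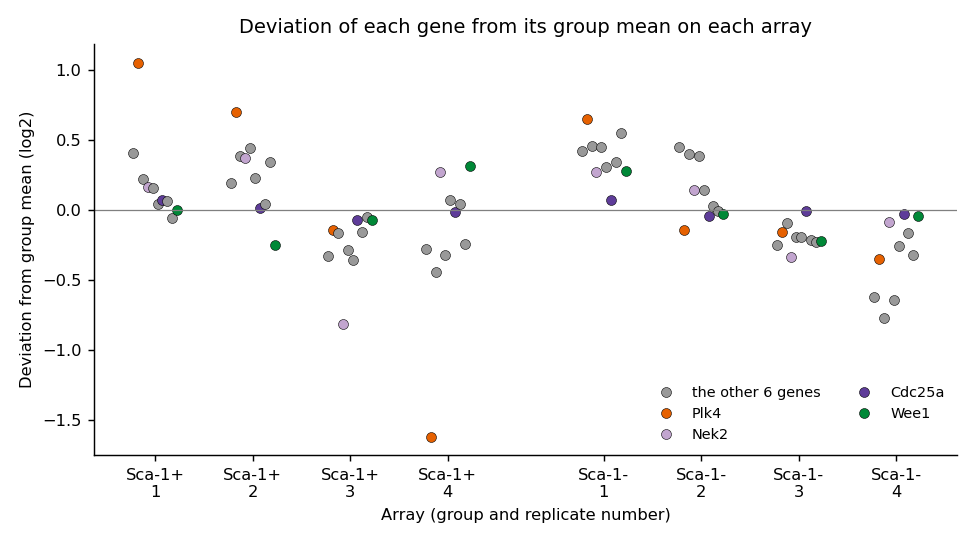
Deviation of each gene from its own group mean (log2) on each of the 8 arrays, Sca-1+ arrays on the left and Sca-1- arrays on the right, with Plk4, Nek2, Cdc25a and Wee1 coloured and the other 6 genes in grey. Most points lie above 0 in replicates 1 and 2 and below 0 in replicates 3 and 4. Among those that go the other way are Wee1 in Sca-1+ replicates 2 and 4 and Nek2 in Sca-1+ replicate 4. The lowest point is Plk4 in Sca-1+ replicate 4, from a signal below the background mark.

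By the same measure, 5 tested genes outside the 10 followed this mean profile most closely, with clone and locus names passed over. They were Trip13, Foxm1, Rapgef3, Egr2 and Ier2, each with r = 0.98 over 8 arrays. Such values are the highest picked from many genes, and the profile holds the Plk4 signals below the background mark. Trip13, an ATPase of the spindle checkpoint, and Foxm1 were also lower in Sca-1+ pDC (-1.86 ± 0.25 and -1.65 ± 0.22 SE, adjusted p = 0.00886 each). Rapgef3 (-1.89 ± 0.49 SE, adjusted p = 0.151) passed only with the slide as a block (0.00195), and Egr2 and Ier2, immediate early genes, did not pass in either fit (0.36 and 0.03 unpaired).

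The pathway around the 10 genes was read from 9 lists of other genes, in which 28 of 90 tested genes were lower in Sca-1+ pDC and 0 were higher, against 1.58% and 0.126% of all genes. These lists too were chosen with earlier results of these data known, so counts over them describe the lists and support nothing further. Without Sca-1+ replicate 3 or Sca-1- replicate 1 or 2 the count was 18, 16 or 16. When arrays were left out singly, 16 of the 28 kept their call each time, and the other 12 (Aurkb, Birc5, Bora, Ccnb1, Cdca8, Haspin, Incenp, Mybl2, Pkmyt1, Stil, Ttk and Ube2s) lost it at least once. Among 12 other kinases of mitosis and its checkpoints 8 were lower, with a median of -1.83 (-1.61 with Aurkb at its bound). The spindle checkpoint kinases Bub1 (-2.03 ± 0.23 SE, adjusted p = 0.00531) and Bub1b (-2.09 ± 0.25 SE, 0.00577) were lower, as was Cdk1 itself (-2.19 ± 0.26 SE, 0.00577). Mastl, which restrains the phosphatase PP2A in mitosis, was lower at -1.88 ± 0.25 SE, with 2 of 4 Sca-1+ arrays well above background, and normexp correction gave -0.58 and no call. Ttk, also among the 8, was lower at -2.00 ± 0.36 SE, with 1 of 4 Sca-1+ arrays well above background. For Ttk normexp correction gave -0.40 and no call. Pkmyt1, the membrane-bound relative of Wee1 that also inhibits Cdk1, was 3.45-fold lower (-1.79 ± 0.28 SE, adjusted p = 0.0173). The 4 kinases that did not pass were Aurkc, Chek1, Chek2 and Vrk1, of which Chek2 and Vrk1 passed with the slide as a block.

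Paralogues listed from the Plk, Nek and Wee families gave other values. Relatives of Aurka and Wee1 counted among the kinases above are not on this list. Of those, Aurkb and Pkmyt1 were lower and Aurkc did not pass. Of 14 listed, 9 were tested, 0 passed in limma's unpaired fit or with the slide as a block (0 and 2 at an unadjusted p under 0.05), and their median was 0.06. Nek3 (-0.36 ± 0.16 SE, adjusted p = 0.585), Nek6 (0.25 ± 0.21 SE, 0.977), Nek1 (-0.27 ± 0.23 SE, 0.988) and Plk3 (-0.35 ± 0.55 SE) overlapped between the groups. The other 5, Plk2, Plk5, Nek10, Nek11 and Wee2, stayed below the background mark on all 8 arrays.

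Among Cdk1 and its partners 4 of 9 tested genes were lower, with a median of -1.44. These were Cdk1 and its cyclins Ccna2 (-2.15 ± 0.21 SE, adjusted p = 0.00503), Ccnb2 (-2.19 ± 0.29 SE, 0.00841) and Ccnb1 (-2.27 ± 0.33 SE, 0.0125). Ccnb1, for instance, averaged 1.00 ± 0.49 in Sca-1+ and 3.28 ± 0.57 in Sca-1- samples (SD, n = 4 each). The Cdk-binding subunits Cks1b (-1.44) and Cks2 (-1.15) passed only with the slide as a block. The Cdk-activating kinase genes Cdk7, Ccnh and Mnat1 differed by 0.08, -0.05 and -0.18 and did not pass.

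Activators and partners of Aurora A and Plk1 were lower in 8 of 12 tested cases, with a median of -1.68. Tpx2, which activates Aurora A on the spindle, had the smallest p of them (-2.20 ± 0.22 SE, adjusted p = 0.00503), and averaging all its detected probes gave -1.41 and no call. The kinesin Kif20a (-2.06 ± 0.23 SE, 0.00520), the cytokinesis factor Ect2 (-1.72 ± 0.20 SE, 0.00577) and the inhibitor of the anaphase-promoting complex Fbxo5 (-1.65 ± 0.20 SE, 0.00663) followed. The call of Ect2 was also lost when its probes were averaged. Cep192, Kif23, Cep55 and Hmmr did not pass, and all but Cep192 passed with the slide as a block. All 4 genes of the chromosomal passenger complex were lower, namely Birc5 (-2.19 ± 0.31 SE), Cdca8 (-2.10 ± 0.33 SE), Incenp (-1.16 ± 0.18 SE) and Aurkb. None of the Sca-1+ arrays had Aurkb well above background, so it was tested only because its Sca-1- arrays were bright (adjusted p = 0.0276). Its fall is a nominal bound of at least 2.70-fold, set as for Plk4, and normexp correction gave a difference of -0.43. Aurkb is counted among the 4 genes and the 28.

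Around Plk4, 1 of 10 centriole genes was lower, the Plk4 partner Stil (-1.85 ± 0.34 SE, adjusted p = 0.0354), with a list median of -0.20. Of the 4 Sca-1+ arrays 3 had Stil well above background, its slide differences ran from -3.15 to -1.33, and normexp correction gave -0.70 and no call. Cenpj (-0.33), Ccp110 (-0.34) and Sass6 (-0.64) did not pass, though Sass6 did with the slide as a block. Of 12 mitotic exit genes 3 were lower, the activator of the anaphase-promoting complex Cdc20 (-2.00 ± 0.26 SE, 0.00754) and its ubiquitin-conjugating enzymes Ube2c (-2.26 ± 0.31 SE, 0.00956) and Ube2s (-0.78 ± 0.15 SE, 0.0451), with a median of -0.21. Cdkn3, a phosphatase that acts on Cdk proteins, differed by -2.12 ± 0.43 SE and passed only with the slide as a block (adjusted p = 0.0533 without it). Of 11 genes for 14-3-3 proteins and the ligases that degrade Cdc25a or Wee1, 0 passed in limma's unpaired fit or with the slide as a block (1 and 2 at an unadjusted p under 0.05), with a median of -0.14. The smallest adjusted p-values there belonged to Ywhaq (-0.31, 0.465), Ywhah (-0.28, 0.712), Sfn (0.64, 0.729) and Skp1 (-0.19, 0.861). Of 14 transcription regulators of G2 and M phase genes 2 were lower, Foxm1 and Mybl2 (-1.50 ± 0.23 SE, 0.0157), with a median of -0.29. With the slide as a block Lin9 (-0.84) and Tfdp1 (-0.78) passed as well.

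**Figure D5:**
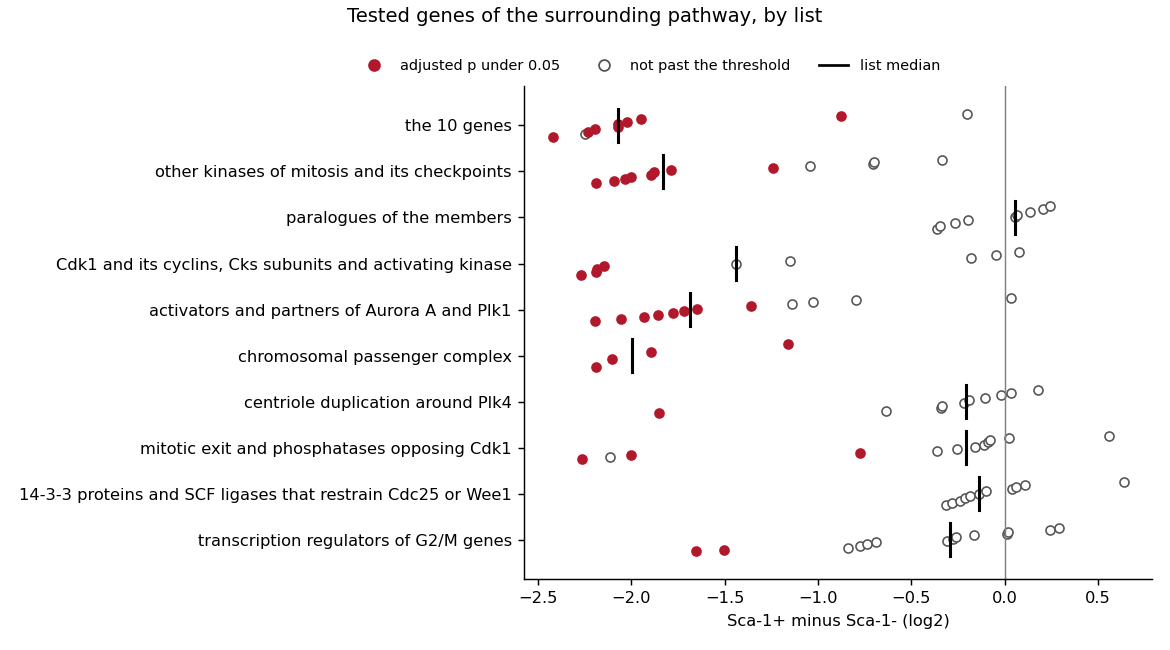
Sca-1+ minus Sca-1- difference (log2) of every tested gene of the 10 and of the 9 pathway lists, filled red where the adjusted p was under 0.05 and open otherwise, with the list median as a bar. The lists with medians of -1.44 or below hold most of the filled points, and the paralogues listed from the Plk, Nek and Wee families lie around 0 (median 0.06).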

How the data were processed

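Sorted pDC were hybridised to 8 single-colour Agilent arrays, 4 Sca-1+ and 4 Sca-1-, grouped and numbered by the sample titles. Amplification and Cy3 labelling started from 100 ng of RNA, per the labels. A second amplification is named in the descriptions, with its relation to this step not given in the sources used here. The deposited spot intensity is linear and, per the file headers, comes background-corrected from Agilent Feature Extraction 10.7.3.1. Another deposited file of the authors holds log2 values (median 3.90 in each column) that correlated at 0.998 to 1.00 with the log2 processed signal of the same array. It was used as an alternative only.

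Each array held 62976 spots, of which 59305 were non-control. Control spots and 105 to 162 outlier spots per array were left out, 0 spots were saturated, and spots of a probe were averaged. The 75th percentile of log2 processed signal over 55681 probes was subtracted (in signal units 166, 192, 200 and 396 in Sca-1+ and 232, 152, 209 and 434 in Sca-1- replicates 1 to 4). A level therefore does not compare one probe with another. Current names came from the accession (26582 probes) or the symbol (3094), and 26005 probes stayed as named by the files. The brightest probe by mean stood for a gene, and the gene was tested where at least 4 of 8 arrays had that probe well above background. No arrays held identical values. The number of arrays limits the precision.

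The test was limma's (version 3.58.1, R 4.3.3, version 1.17.8 of data.table), unpaired and two-sided through lmFit and eBayes, with Benjamini-Hochberg adjustment over 19818 genes and a threshold of 0.05. On data simulated for this comparison over 19818 genes, 31% of changes of 1 log2 unit and 78% of changes of 2 were recovered, with 8 false calls. The simulated noise was independent between genes and between arrays and held no slide effect. These rates may therefore not hold for the real arrays. Same-numbered arrays shared a slide, per the file headers, and their deviations from the group means correlated at 0.44, 0.43, 0.64 and 0.89 for replicates 1 to 4. The numbers were therefore taken as pairs in the block fit, the slide differences and the swaps within slides. The main test ignores this pairing. The slide as a block is printed where it changes a call. Among replicates 1 to 3 different numbers correlated at 0.12 to 0.54. Replicate 4 of both groups was extracted with another protocol version of the scanner software. The members and the lists were chosen with earlier results of these data known. Named genes are the 10, Ly6a, per list the 4 genes of smallest adjusted p, genes that complete a count of 5 or fewer, and the 5 genes most like the mean profile. Pkmyt1, Ttk, Plk3 and the cell type markers were named after their values were seen. Some genes stand on more than 1 list (Cdk1, Aurkb and Cep192). The exon or UTR under each probe was not analysed here, and no gene of the 10 has another probe to compare. Alternatives were normexp (offset 50), quantile scaling, scaling on detected probes, both filters on dim probes, the block, array weights, the mean of probes, the deposited table, leaving out arrays and, added after seeing the data, swaps within slides for the ratios. Ratios were tested with scipy 1.17.1, and Python 3.11.15 drew the figures (pandas 2.3.3, numpy 2.4.6, matplotlib 3.10.9).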

Additional observations from a re-analysis of the deposited data

Results flagged for a closer look

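Of the 20 groups of 4 values given by the 10 genes in Sca-1+ and Sca-1- samples, 1 held a sample far from the others. Cdc25b in Sca-1+ replicate 3 was at -0.60, while the other Sca-1+ samples were at -0.38, -0.40 and -0.40, so that its gap to the nearest value took 0.887 of the range of the group, more than the 95% limit of Dixon's test for 4 samples. Chance flags about 1 in 20 groups, and the Sca-1- samples of Cdc25b lay at 1.42 or above.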

How the results depend on the processing

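All 10 genes kept a negative difference under each of 21 alternatives in which they were tested, and of 209 such results 168 kept their side of the threshold, 38 lost the call, 3 gained it and 0 turned sign. With the slide as a block, which pairs the replicate numbers, 9 of the 10 genes and 39 list genes passed, and the count over all genes was 1233 (817 lower, 416 higher) in place of 339 (314 lower, 25 higher). Array weights gave 1470, and no filter on dim probes gave 182. The median difference of the 10 genes moved to -1.62 with normexp correction, whose offset makes differences of dim probes smaller by construction. Between 7 and 9 of the 10 genes passed under the alternatives that kept all arrays. Leaving out 1 array gave 163 to 463 genes called over all genes, 5 to 8 of the 10 genes, 16 to 29 list genes and a median of -2.21 to -1.94. Of the 10, 5 passed without Sca-1+ replicate 3, Sca-1- replicate 1 or Sca-1- replicate 2, since Plk1, Aurka and Wee1 were lost. Without both samples of replicate 1, 2, 3 or 4 the number was 0, 0, 3 or 9, with 9 at an unadjusted p under 0.05 in limma each time, and 1, 2, 29 or 879 genes over all. The list genes passing were 0, 0, 3 and 39 in these 4 fits, with 35, 37, 37 and 50 at an unadjusted p under 0.05. The calls of the dim list genes Aurkb, Mastl, Ttk and Stil were lost under normexp correction. The cause of these changes was not tested.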
